A study of Mus musculus with 33 samples.

Results

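A set of 10 genes of the fast transcriptional response to growth signals was followed through the reprogramming of mouse fibroblasts to pluripotency. They are the AP-1 subunit genes Fos, Fosb, Fosl1, Fosl2, Jun, Junb and Jund, the related factor gene Atf3, and the immediate early genes Egr1 and Ier3. They were chosen by symbol from 37973 genes in the deposited table, and each symbol matched 1 row. AP-1 is a family of dimers, in which a Fos or Atf protein pairs with a Jun protein through a leucine zipper, or Jun proteins pair with each other, and binds the DNA motif TGACTCA. Immediate early genes are switched on within minutes of serum, growth factors, stress or cell handling, without new protein synthesis, and most of their transcripts decay quickly. In fibroblasts AP-1 sits at the enhancers that keep fibroblast genes active, and it is known as a barrier to reprogramming.

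The cells were mouse embryonic fibroblasts from embryos of 14 to 15 days post coitum, with the genotype Col1a1-OSKM+/-; Rosa26-rtTA+/-; Oct4-GFP+/-. In these cells doxycycline, given at 1 µg/ml in every group, lets the rtTA protein made from the Rosa26 locus turn on a cassette of Pou5f1, Klf4, Sox2 and Myc (OSKM). Cells were transduced with lentivirus, to overexpress Dppa2 and Dppa4, chromatin proteins of pluripotent cells, in the Dppa2/4 arm, and the control arm is labelled as a control overexpression. Cells were sorted on days 2, 4, 8, 11 or 14 by Thy1, a fibroblast antigen that is lost, SSEA1, an antigen that is gained, and the Oct4-GFP reporter of late pluripotent cells. The 13 control and 17 Dppa2/4 libraries of OSKM cells covered the gates Thy1+SSEA1- (4 and 4), Thy1-SSEA1- (4 and 5), Thy1-SSEA1+ (3 and 3) and GFP+ (2 and 3), with Thy1+SSEA1+ (2) in the Dppa2/4 arm alone. From day 8 the first 3 gates are labelled GFP-. A pair of day 2 libraries titled rtTA-MEF, 1 per arm, has the genotype Rosa26-rtTA+/-; Oct4-GFP+/- without the OSKM cassette. Their titles and treatment give day 2 and their descriptions day 1, so their day is in doubt. Each arm, day and gate held 1 library, and the labels do not give the number of embryos or of independent transductions. The p-values below therefore measure how alike differences were over days and gates, not over independent cultures.

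The values were FPKM, fragment counts scaled by transcript length and by library size. Depth worked back from them was 21.5 to 43.2 M fragments in OSKM libraries and 13.8 and 16.2 M in the rtTA-MEF pair. The day 4 Thy1+SSEA1- library labelled Dppa2/4 had 0.354 FPKM of Dppa2, which lies within the 0.149 to 0.527 FPKM of the control libraries of its gate, and the main results that use it are also given without it. In the other Dppa2/4 libraries of the Thy1 and SSEA1 gates Dppa2 was 43.2 to 612 FPKM, above the 14.1 or less of the control, while in GFP+ cells, which switch on their own Dppa2, the arms overlapped at 45.4 to 66.1 FPKM in control and 49.3 to 61.5 with Dppa2/4. The control library titled day 11 GFP+ carries a description of another gate. The summed level of 8 fibroblast markers (Thy1, Col1a1, Col1a2, Col3a1, Pdgfra, Fn1, Lum and Dcn) was 744 to 3514 FPKM in Thy1+SSEA1- cells, 1273 to 7533 in Thy1-SSEA1- cells, 185 to 907 in Thy1-SSEA1+ cells and 191 to 338 in GFP+ cells. That of 6 pluripotency markers (Nanog, Esrrb, Zfp42, Dppa5a, Fut9 and Epcam) was 2.36 to 64.2, 1.70 to 217, 266 to 1561 and 2103 to 4392 FPKM in the same order. Of the markers of other cell types, Ptprc of blood cells reached 0.155 FPKM, Cdh5 of endothelium 0.148, Myod1 of muscle 0.162 and Krt5 of keratinocytes 0.537, and each was at 0 in 5 or more libraries. Other genes of these lists were higher, with up to 82.6 FPKM of Cd68 (blood cells), 65.0 of Pecam1 and 33.0 of Tek (endothelium), 33.6 of Des (muscle) and 81.1 of Tubb3 (neurons).

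The promoters of Fos, Fosb and Jun are shown because these genes were all lower in GFP+ cells below, and of their windows those of Fos and Fosb, but not that of Jun, held a motif searched. The 250 bases before the RefSeq start of each gene (GRCm38.p6) are printed from 5′ to 3′ on the gene's strand. Capitals mark matches, on either strand, to any of 5 motifs. These are the AP-1 motif TGACTCA, the CREB and Atf motif TGACGTCA, its core TGACG, which the longer motif contains, the Egr motif GCGNGGGCG, and the CArG box that SRF binds.
Fos, chr12:85473640-85473889, + strand: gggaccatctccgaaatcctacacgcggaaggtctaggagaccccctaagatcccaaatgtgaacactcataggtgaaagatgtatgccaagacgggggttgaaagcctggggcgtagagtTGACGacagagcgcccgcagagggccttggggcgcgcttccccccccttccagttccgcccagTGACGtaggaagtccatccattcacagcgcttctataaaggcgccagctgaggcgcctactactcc
Fosb, chr7:19310046-19310295, - strand: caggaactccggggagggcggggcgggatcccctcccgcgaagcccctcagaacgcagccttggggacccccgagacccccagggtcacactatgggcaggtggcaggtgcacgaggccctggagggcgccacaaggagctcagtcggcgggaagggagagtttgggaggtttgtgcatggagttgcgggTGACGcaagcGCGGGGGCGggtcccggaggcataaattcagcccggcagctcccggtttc
Jun, chr4:95052223-95052472, - strand: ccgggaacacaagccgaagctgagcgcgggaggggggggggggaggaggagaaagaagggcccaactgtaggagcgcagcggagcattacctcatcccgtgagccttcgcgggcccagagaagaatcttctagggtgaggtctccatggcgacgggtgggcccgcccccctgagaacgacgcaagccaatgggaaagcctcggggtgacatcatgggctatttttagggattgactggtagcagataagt

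Fos held 2 copies of TGACG, Fosb held 1 copy just upstream of an Egr motif, and Jun held no exact match. The Jun window does hold tgacatca, which differs from TGACGTCA at 1 base, and such near matches were not searched. Fosl2, whose RefSeq start lies inside its longer GENCODE gene model, held an Egr motif alone. The RefSeq start of Atf3 also lies inside its longer GENCODE gene model. Of 8 members whose promoters were searched, 4 held TGACG (Fos, Fosb, Junb and Atf3) against 17.8% of 32851 promoters of the same length, and 2 held the Egr motif against 4.70%. TGACTCA, TGACGTCA and the CArG box, which 4.46%, 1.55% and 1.47% of promoters held, matched in none of the 8 windows. Bases further upstream were not searched, nor were the promoters of Egr1 and Fosl1. A match describes letters in this window and is not evidence of binding.

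Among the Fos genes, Fos (ENSMUSG00000021250, GRCm38 chr12:85473890-85477273) was the most abundant per length, with a lowest, median and highest level of 2.92, 48.3 and 246 FPKM over the 32 libraries. Its median was 103 FPKM in Thy1+SSEA1- cells, 65.0 in Thy1-SSEA1- cells, 31.0 in Thy1-SSEA1+ cells and 4.72 in GFP+ cells, and the ranges of neighbouring gates overlapped. Fosl2 (ENSMUSG00000029135, chr5:32135801-32157842), which encodes Fra-2, a Fos protein without the strong activation domain of Fos, ranged from 0.855 to 104 FPKM with a median of 23.5. The Fosl2 level lay between 17.5 and 104 FPKM in all 17 libraries of SSEA1- OSKM gates and between 0.855 and 3.74 in the 5 GFP+ libraries. Jun was also apart in these libraries, at 10.5 FPKM or more against 4.43 or less. The share of all genes that were apart in this way was not counted. Fosb (chr7:19302696-19310051), a close relative of Fos, had a median of 1.46 FPKM and reached 20.1 and 10.4 FPKM in the control and Dppa2/4 day 2 Thy1-SSEA1- libraries. Fosl1 (chr19:5447547-5455946), which encodes Fra-1, was hardly detected: it reached 1 FPKM in 3 of 32 libraries and was highest, at 1.96 FPKM, in the rtTA-MEF library of the Dppa2/4 arm.

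Among the Jun genes, which supply the partner of every Fos protein, Jun (ENSMUSG00000052684, chr4:95049034-95052222) ranged from 1.24 to 56.5 FPKM with a median of 16.5. Jun was highest in the same 2 day 2 Thy1-SSEA1- libraries, at 56.5 FPKM in control and 51.3 with Dppa2/4, and it was 1.24 to 4.43 FPKM in GFP+ cells. Junb (chr8:84974484-84978718), a weaker activator than Jun, had a median of 6.09 FPKM and was highest, at 48.7, in control day 14 Thy1+SSEA1- cells. Jund (chr8:70698949-70700616), the Jun gene that resting cells keep on, stayed between 9.38 and 25.9 FPKM, a 2.76-fold span that was the narrowest of the 9 members with a level above 0 throughout. Atf3 (chr1:191170296-191218039), a stress-induced partner of Jun proteins that often represses, had a median of 4.52 FPKM and a highest level of 25.1. The genes Fosl1, Jun, Junb, Jund and Atf3 each overlap a gene on the opposite strand, by 108 to 2767 bases, and the strand setting is not given in the sources used here, so reads of the partner cannot be told apart there.

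Egr1, the zinc finger factor that binds GCGNGGGCG, ranged from 4.88 to 354 FPKM with a median of 78.4, the highest median of the members. Ier3 (chr17:35821684-35822923), a survival factor induced by NF-kB, p53 and growth signals, ranged from 5.10 to 172 FPKM with a median of 38.4. Over the 32 libraries, as a description, Fos correlated best with Egr1 (Pearson r = 0.94 on log2(FPKM + 1)), and of the genes with a mean of at least 5 FPKM the next were Cpt1c (0.90), Zfp36 (0.88), Ip6k2 (0.87) and Lman2l (0.87). Fosl2 and Jun followed each other at 0.90, while Jund and Atf3 stood at 0.27. The genes most like Fosl1 were Emilin2 (0.86), Procr (0.85), Pqlc1 (0.84), Wfs1 (0.83) and Timp1 (0.82). The libraries share cultures, gates and days, so these are not independent points.

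**Figure D1:**
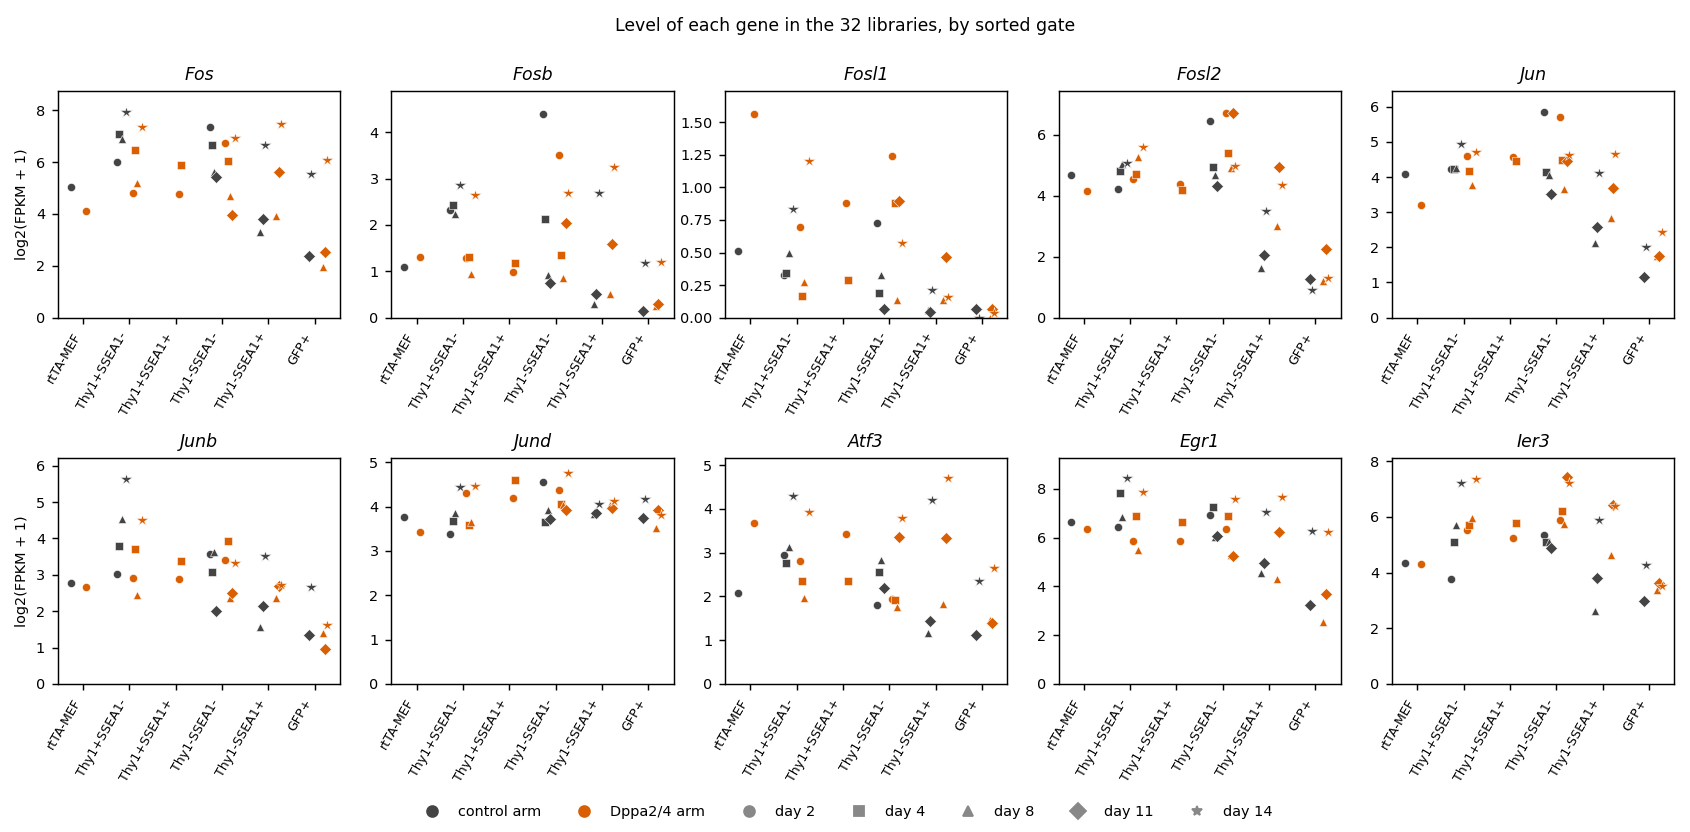
Level of each member, log2(FPKM + 1) on the vertical axis, in the 32 libraries by sorted gate on the horizontal axis, with grey for the control arm, orange for the Dppa2/4 arm and the marker shape for the day. Fosl2 and Jun are lowest in the GFP+ gate, Jund hardly moves between gates, and the stars of day 14 lie above the other days of the same arm and gate for Fos, Atf3 and Egr1.

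The arms were compared within 13 strata, each a day and gate present in both. Ier3 and Fosl2 were higher with Dppa2/4, and the other 8 members did not pass the threshold (adjusted p under 0.05, limma). Over all 17242 genes tested, 23.5% were called, 15.9% as higher and 7.6% as lower, so 2 of 10 is near that background.

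Control and Dppa2/4 Ier3 was 12.5 and 45.2, 33.3 and 50.8, 50.7 and 61.8, and 149 and 165 FPKM in Thy1+SSEA1- cells of days 2, 4, 8 and 14. The pairs were 39.7 and 58.7, 32.9 and 72.7, 33.6 and 53.0, and 28.2 and 172 FPKM in Thy1-SSEA1- cells of days 2, 4, 8 and 11. They were 5.10 and 23.6, 12.9 and 85.9, and 58.6 and 83.5 FPKM in Thy1-SSEA1+ cells of days 8, 11 and 14, and 6.95 and 11.3, and 18.4 and 10.5 in GFP+ cells of days 11 and 14. Ier3 was thus above control in 12 of 13 strata, all but GFP+ day 14, a count that 9.13% of genes reached. On the log2(FPKM + 1) scale it was higher by 0.98 (SE 0.25, adjusted p = 0.0139, limma). Without the day 4 Thy1+SSEA1- library labelled Dppa2/4 it was higher by 1.01 (adjusted p = 0.0168, limma).

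Fosl2 was also above control in 12 of 13 strata, with 27.1 against 25.5 FPKM in Thy1+SSEA1- cells of day 4 as the exception, which is the stratum of the library with control-level Dppa2. In Thy1-SSEA1- cells control and Dppa2/4 Fosl2 was 86.6 and 103, 29.4 and 41.3, 24.7 and 29.2, and 18.9 and 104 FPKM on days 2, 4, 8 and 11. In Thy1-SSEA1+ cells it was 2.11 and 7.02, 3.12 and 29.7, and 10.2 and 19.3 FPKM on days 8, 11 and 14. Fosl2 rose by 0.84 on the log2 scale (SE 0.23, adjusted p = 0.0176, limma), and by 0.91 (adjusted p = 0.0134) without that library. The 2 largest Fosl2 differences were those of day 11, in Thy1-SSEA1- and Thy1-SSEA1+ cells. Without day 14 the call of Fosl2 was lost at 0.91 (adjusted p = 0.0607, limma), and without the stratum as a block neither gene passed (adjusted p = 0.531 for Fosl2 and 0.266 for Ier3). Jun stood at 0.29 (SE 0.13, adjusted p = 0.133), Fos at -0.30 (SE 0.26, adjusted p = 0.422) and Egr1 at -0.31 (SE 0.18, adjusted p = 0.237).

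The same 26 libraries were then used to ask whether the arm effect differed between gates, and Fos and Egr1 had opposite signs. In the SSEA1- gates Dppa2/4 Fos lay below control throughout, and in the Thy1-SSEA1+ and GFP+ gates it lay above. In Thy1+SSEA1- cells Fos was 63.0, 135, 119 and 246 FPKM in control and 27.1, 87.5, 35.8 and 163 with Dppa2/4 on days 2, 4, 8 and 14. In Thy1-SSEA1- cells it was 164, 102, 48.7 and 41.6 FPKM in control and 105, 65.0, 24.8 and 14.4 with Dppa2/4 on days 2, 4, 8 and 11. Dppa2/4 Fos was lower on each of these days, although the levels of the arms overlapped when days were pooled.

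In Thy1-SSEA1+ cells Fos was 8.95, 13.1 and 99.4 FPKM in control and 14.2, 47.8 and 177 with Dppa2/4 on days 8, 11 and 14. In GFP+ cells it was 4.13 and 45.9 FPKM in control and 4.72 and 66.5 with Dppa2/4 on days 11 and 14. Fos was thus lower in 8 of 8 SSEA1- strata and higher in 5 of 5 SSEA1+ or GFP+ strata, a pattern shown by 22 of 17242 genes (0.128%). The log2 difference between arms was -0.97 (SE 0.17) in the SSEA1- strata and 0.78 (SE 0.21) in the others. The difference between these effects was 1.76 (SE 0.27, adjusted p = 0.0194, limma), in a test that called 0.847% of genes, 0.423% in that direction.

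Egr1 had the same order of effects. In Thy1+SSEA1- cells of days 2, 4, 8 and 14 it was 85.6, 225, 116 and 354 FPKM in control and 56.8, 116, 44.0 and 234 with Dppa2/4. In Thy1-SSEA1- cells of days 2, 4, 8 and 11 it was 123, 155, 63.4 and 65.6 FPKM in control and 80.2, 117, 37.6 and 36.7 with Dppa2/4. Egr1 was below control in all 8 of these strata, as 2.81% of genes were. It was above control in 3 of 5 SSEA1+ or GFP+ strata, with 22.7, 30.4 and 132 FPKM in control and 18.6, 73.3 and 205 with Dppa2/4 in Thy1-SSEA1+ cells, and 8.55 and 76.6 against 12.05 and 74.3 in GFP+ cells. The effects were -0.76 (SE 0.15) and 0.40 (SE 0.18), and their difference was 1.16 (SE 0.23, adjusted p = 0.0388, limma).

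The other 8 members did not pass this test. Atf3 stood at 1.04 (SE 0.38, adjusted p = 0.176), Fosb at 0.92 (SE 0.39, adjusted p = 0.230), Fosl2 at 0.76 (SE 0.44) and Jun at 0.63 (SE 0.23, adjusted p = 0.163), while Ier3 stood at 0.05 (SE 0.54), with Dppa2/4 above control in both sets of gates. Fos, Fosb, Fosl2, Jun and Atf3 were above control in 5 of 5 SSEA1+ or GFP+ strata, as 16.4% of genes were. Fosb was below it in 7 of 8 SSEA1- strata. Without the day 11 Thy1-SSEA1- stratum, the 1 where it was above control, its difference was 1.18 (adjusted p = 0.0460, limma). Leaving out that stratum raises the difference by construction. This was the 1 of 21 alternative fits of Fosb, some of them repeats, that gained a call.

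In the GFP+ strata the arms differed little in Dppa2. It was 66.1 FPKM in control and 61.5 with Dppa2/4 on day 11, and 45.4 and 54.0 on day 14. The control library of GFP+ day 11 is that with a description of another gate. The SSEA1+ and GFP+ strata were all of days 8 to 14, so gate and day were in part confounded. On days 8 to 14 alone the difference was 1.96 for Fos (adjusted p = 0.0552) and 1.29 for Egr1 (adjusted p = 0.106), as large as over all days and short of the threshold. Without day 14 it was 1.88 (adjusted p = 0.145) and 1.25 (adjusted p = 0.187), and without the day 14 Thy1-SSEA1+ stratum it was 1.74 (adjusted p = 0.0563) and 1.10 (adjusted p = 0.0971). Without the day 4 Thy1+SSEA1- library labelled Dppa2/4 it was 1.81 (adjusted p = 0.0144) and 1.13 (adjusted p = 0.0389), and Fos and Egr1 were each lower in 7 of 7 SSEA1- strata. Fibroblast and pluripotency markers also differed between the arms. The fibroblast sum with Dppa2/4 was 0.314 to 1.03 times control in the SSEA1- strata, below it in all but 1. In the others it was 0.541 to 2.03 times control, with a median of 0.886, and above control in 2 of 5. The pluripotency sum was above control in 8 of 8 SSEA1- strata and in 1 of 5 others, and the part of these shifts in the Fos and Egr1 results was not tested. In bulk libraries of sorted cells, fewer cells with a transcript and less transcript per cell cannot be told apart.

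**Figure D2:**
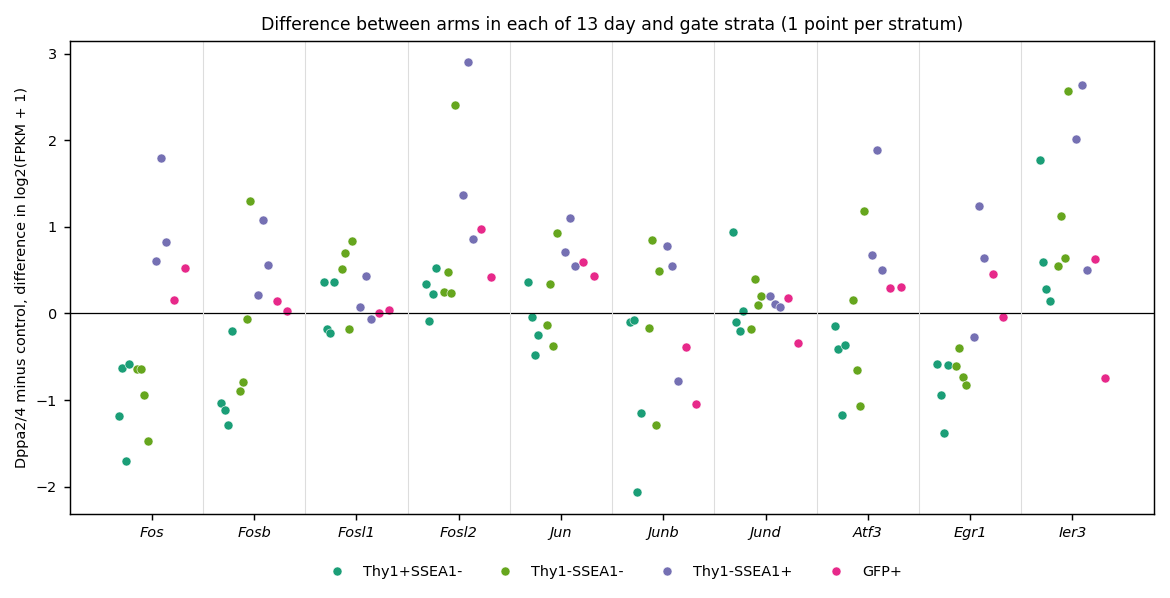
Difference between the arms, Dppa2/4 minus control in log2(FPKM + 1) on the vertical axis, for each member on the horizontal axis, with 1 point per day and gate and the colour giving the gate. The green (both SSEA1- gates) points of Fos and Egr1 lie below 0 in 8 of 8 strata, the purple and pink points of Fos lie above 0 in 5 of 5, and Ier3 and Fosl2 lie above 0 in 12 of 13.

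Lists of genes around AP-1, chosen with earlier results of these data known, were counted in the comparison of arms. Of 25 AP-1 target genes, 11 were higher and 0 lower with Dppa2/4, where 15.9% of all genes were called higher and 7.6% lower. Their median was 0.50 beside 0.03 over all genes. Ptgs2, the prostaglandin synthase COX-2, averaged 9.41 FPKM in control and 57.4 with Dppa2/4, a rise of 2.09 (SE 0.42, adjusted p = 0.00342, limma), and Areg, the EGF receptor ligand amphiregulin, rose by 1.47 (SE 0.33, adjusted p = 0.00642). Without the day 4 Thy1+SSEA1- library labelled Dppa2/4 the count was 8 higher and 0 lower. The list's genes are also regulated by other factors.

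With Dppa2/4, 6 of the 30 other immediate early genes passed as higher and 0 as lower, with a median of 0.24. The orphan nuclear receptor genes Nr4a3, by 0.87 (SE 0.22, adjusted p = 0.0118), and Nr4a2, by 0.75 (SE 0.22, adjusted p = 0.0224), led them. The arm effect differed between the sets of gates for 1 of the 30, Btg2, an antiproliferative gene, at 0.97 (SE 0.18, adjusted p = 0.0262, limma). Among 15 other bZIP factors that pair with or resemble AP-1, 4 passed as higher and 2 as lower, led by Maff, a small Maf protein, at 0.73 (SE 0.16, adjusted p = 0.00634) and Maf at -0.68 (SE 0.20, adjusted p = 0.0269). Of 20 genes of the MAPK and SRF input, which carries growth factor signals to Fos and Egr1, 3 were higher and 1 lower. The higher count of the input genes was 2 without the day 4 Thy1+SSEA1- library labelled Dppa2/4. Beside the 23.5% of all genes called, 15.9% as higher, the counts of the immediate early and input genes are near the background, and the 15 bZIP factors are few. Without day 14 they were 4 higher for the immediate early genes, 3 higher and 0 lower for the bZIP factors, and 2 higher and 0 lower for the input. The input calls were led by Pdgfra, a growth factor receptor and fibroblast marker, at -0.69 (SE 0.22, adjusted p = 0.0370), and Map3k1, a kinase upstream of Jun, at 0.43 (SE 0.11, adjusted p = 0.0109). Of the bZIP partners, input genes and targets, 0 passed the test of whether the arm effect differed between the sets of gates (limma). Without the day 4 Thy1+SSEA1- library labelled Dppa2/4, 1 of the 25 targets passed it as lower.

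Gates of the same arm and day were compared next, and comparisons that name a gate in common use the same libraries of that gate. Between Thy1-SSEA1- and Thy1+SSEA1- cells, over 7 pairs, 0 of 10 members passed (limma) in a comparison that called 0.0058% of genes, and 1 member, Atf3, had an unadjusted p under 0.05. Atf3 was lower in Thy1-SSEA1- cells in 7 of 7 pairs, as 2.64% of genes were. Its levels were 6.76, 5.78 and 7.80 FPKM in Thy1+SSEA1- and 2.49, 4.93 and 6.09 in Thy1-SSEA1- cells of the control on days 2, 4 and 8, and 6.03, 4.10, 2.91 and 14.2 against 2.87, 2.78, 2.39 and 12.8 FPKM with Dppa2/4 on days 2, 4, 8 and 14. The difference was -0.47 (SE 0.15, adjusted p = 0.326), and -0.48 (adjusted p = 0.457, limma) without the day 4 pair of the Dppa2/4 arm, whose Thy1+SSEA1- library had control-level Dppa2. On day 2 the Thy1-SSEA1- libraries had 20.1 and 10.4 FPKM of Fosb and 56.5 and 51.3 of Jun, against 3.99 and 1.44, and 17.9 and 23.2, in Thy1+SSEA1- cells of control and Dppa2/4. These 2 Thy1-SSEA1- libraries also stood apart by their fibroblast sums of 7098 and 7533 FPKM, against 1273 to 2502 in the 7 later ones.

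Thy1-SSEA1+ cells, the gate of progressing cells, had less Fosl2 and Ier3 than Thy1-SSEA1- cells of the same arm and day. Over 5 pairs 2 of 10 members were lower, in a comparison that called 18.8% of genes, 10.5% as lower and 8.24% as higher. Fosl2 was 2.11 and 24.7 FPKM in Thy1-SSEA1+ and Thy1-SSEA1- control cells of day 8, and 3.12 and 18.9 on day 11. With Dppa2/4 it was 7.02 and 29.2, 29.7 and 104, and 19.3 and 30.2 FPKM on days 8, 11 and 14. Fosl2 was lower in 5 of 5 pairs, as 17.8% of genes were, by -1.93 on the log2 scale (SE 0.34, adjusted p = 0.0195, limma).

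Ier3 in the same order was 5.10 and 33.6, and 12.9 and 28.2 FPKM in control, and 23.6 and 53.0, 85.9 and 172, and 83.5 and 149 with Dppa2/4. It was lower in 5 of 5 pairs by -1.30 (SE 0.26, adjusted p = 0.0272, limma). Leaving out the control day 11 pair, the Dppa2/4 day 8 pair or the Dppa2/4 day 11 pair ended both calls, with adjusted p between 0.0557 and 0.0889, and leaving out the control day 8 pair ended that of Fosl2 (adjusted p = 0.0533). The remaining members did not pass. Jun stood at -0.89 (SE 0.28, adjusted p = 0.0740) and Fos at -0.49 (SE 0.60, adjusted p = 0.587), with Fos lower in 3 pairs and higher in the Dppa2/4 pairs of days 11 and 14. The fibroblast sum was 1273 FPKM or more in Thy1-SSEA1- libraries and 907 or less in Thy1-SSEA1+ libraries, and its part in the result was not tested.

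Against Thy1+SSEA1- cells, over 4 pairs, Fosl2 alone of the members was lower in Thy1-SSEA1+ cells, by -2.13 (SE 0.40, adjusted p = 0.0441, limma), where 7.62% of genes were called lower. Ier3 stood at -1.69 (adjusted p = 0.0564), Junb at -1.74 (adjusted p = 0.0792) and Egr1 at -1.28 (adjusted p = 0.0763), each lower in 4 of 4 pairs, as 24.2% of genes were. Leaving out any pair ended the Fosl2 call, with adjusted p of 0.0909 to 0.178.

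In Thy1-SSEA1+ against Thy1-SSEA1- cells 21 of 25 AP-1 targets were lower and 0 higher, with a median of -1.56 beside 0.00 over all genes, and 17 were lower without day 14. Without the control day 11 pair no gene was called in this comparison, so these counts and those of the lists that follow were all 0. Mmp13, a collagenase, fell by 3.02 (SE 0.37, adjusted p = 0.0111, limma), from a mean of 101 to 14.2 FPKM, and Spp1, the matrix protein osteopontin, fell by 2.92 (SE 0.40, adjusted p = 0.0128). Of the other immediate early genes 8 were lower and 1 higher, led by the EGF receptor inhibitor Errfi1 at -1.83 (SE 0.29, adjusted p = 0.0160) and the matricellular gene Ctgf at -1.74 (SE 0.24, adjusted p = 0.0129). Of the bZIP partners 6 were lower, led by Maf at -1.40 (SE 0.29, adjusted p = 0.0287) and Atf5 at -1.18 (SE 0.20, adjusted p = 0.0185). Of the MAPK and SRF input 4 of 20 were lower, led by the receptors Pdgfra at -2.48 (SE 0.34, adjusted p = 0.0128) and Pdgfrb at -2.22 (SE 0.43, adjusted p = 0.0247). Over all genes 18.8% were called in this comparison, 10.5% as lower and 8.24% as higher. The count of the input genes is near that background.
Against Thy1+SSEA1- cells the lower counts were 13 of 25 targets, led by the proteinase genes Mmp3 at -3.14 (SE 0.43, adjusted p = 0.0383) and Mmp13 at -2.94 (SE 0.44, adjusted p = 0.0384), and 4 of 30 immediate early genes, with 1 higher, 4 of 15 bZIP partners and 3 of 20 input genes. Over all genes 13.7% were called there, 7.62% as lower, so the counts of the immediate early and input genes are near the background. With any of the 4 pairs left out, 0 genes were called and all of these list counts were 0.

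GFP+ cells, the gate of the Oct4 reporter, had the lowest median level of the 4 gates for every member but Jund. Against Thy1-SSEA1+ cells of the same arm and day, 8 of 10 members were lower over 5 pairs and 0 higher, in a comparison that called 41.4% of genes, 24.3% as lower. The 8 were Fos, Fosb, Fosl2, Jun, Junb, Atf3, Egr1 and Ier3, each lower in 5 of 5 pairs, as 28.4% of genes were. The median of the 10 members was -1.47 beside -0.09 over all genes.

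Fosl2 was 3.12 and 1.41, and 10.2 and 0.855 FPKM in Thy1-SSEA1+ and GFP+ cells of the control on days 11 and 14. It was 7.02 and 1.32, 29.7 and 3.74, and 19.3 and 1.48 FPKM with Dppa2/4 on days 8, 11 and 14. The drop was -2.18 on the log2 scale (SE 0.35, adjusted p = 0.00773, limma). Ier3 fell by 1.88 (SE 0.36, adjusted p = 0.0119), from 12.9 to 6.95 and 58.6 to 18.4 FPKM in control and from 23.6 to 9.35, 85.9 to 11.3 and 83.5 to 10.5 with Dppa2/4.

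Fos in the same order went from 13.1 to 4.13 and 99.4 to 45.9 FPKM in control, and from 14.2 to 2.92, 47.8 to 4.72 and 177 to 66.5 with Dppa2/4. Fos fell by 1.80 (SE 0.30, adjusted p = 0.00841, limma), yet GFP+ Fos of day 14 lay above Thy1-SSEA1+ Fos of days 8 and 11 in control, so the levels overlapped across days. Jun went from 4.98 to 1.24 and 16.3 to 3.03 FPKM in control, and from 6.08 to 2.35, 11.8 to 2.38 and 24.4 to 4.43 with Dppa2/4, a drop of -1.75 (SE 0.20, adjusted p = 0.0036). Egr1 fell by 1.64 (SE 0.24, adjusted p = 0.00603), Atf3 by 1.31 (SE 0.34, adjusted p = 0.0296), Fosb by 1.10 (SE 0.30, adjusted p = 0.0335) and Junb by 1.09 (SE 0.17, adjusted p = 0.00677).

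In the 3 pairs that set GFP+ against Thy1+SSEA1- cells of the same arm and day, without a test, all 10 members were lower in GFP+ cells, as 36.9% of genes were. Against Thy1-SSEA1+ cells, Jund and Fosl1 did not pass. Jund stood at -0.18 (SE 0.11, adjusted p = 0.240), and was lower in GFP+ cells in 4 of 5 pairs. It was 12.4 FPKM in GFP+ and 13.4 in Thy1-SSEA1+ cells of control day 11, 16.9 and 15.6 on day 14, and 10.5 and 15.4, 14.1 and 14.6, and 13.1 and 16.5 with Dppa2/4 on days 8, 11 and 14. Fosl1 was at most 0.0484 FPKM in GFP+ cells and is too low to compare. Jund was the most abundant AP-1 gene per length in the 3 GFP+ libraries of days 8 and 11, above Fos, while Fos was above Jund in both GFP+ libraries of day 14. Without day 14 no member and no gene passed, over the 3 pairs left, with Fos at -2.17 (adjusted p = 0.0732) and Jun at -1.47 (adjusted p = 0.0675, limma). The calls of Fosb and Atf3 were also lost when the control day 14, Dppa2/4 day 11 or Dppa2/4 day 14 pair was left out.

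**Figure D3:**
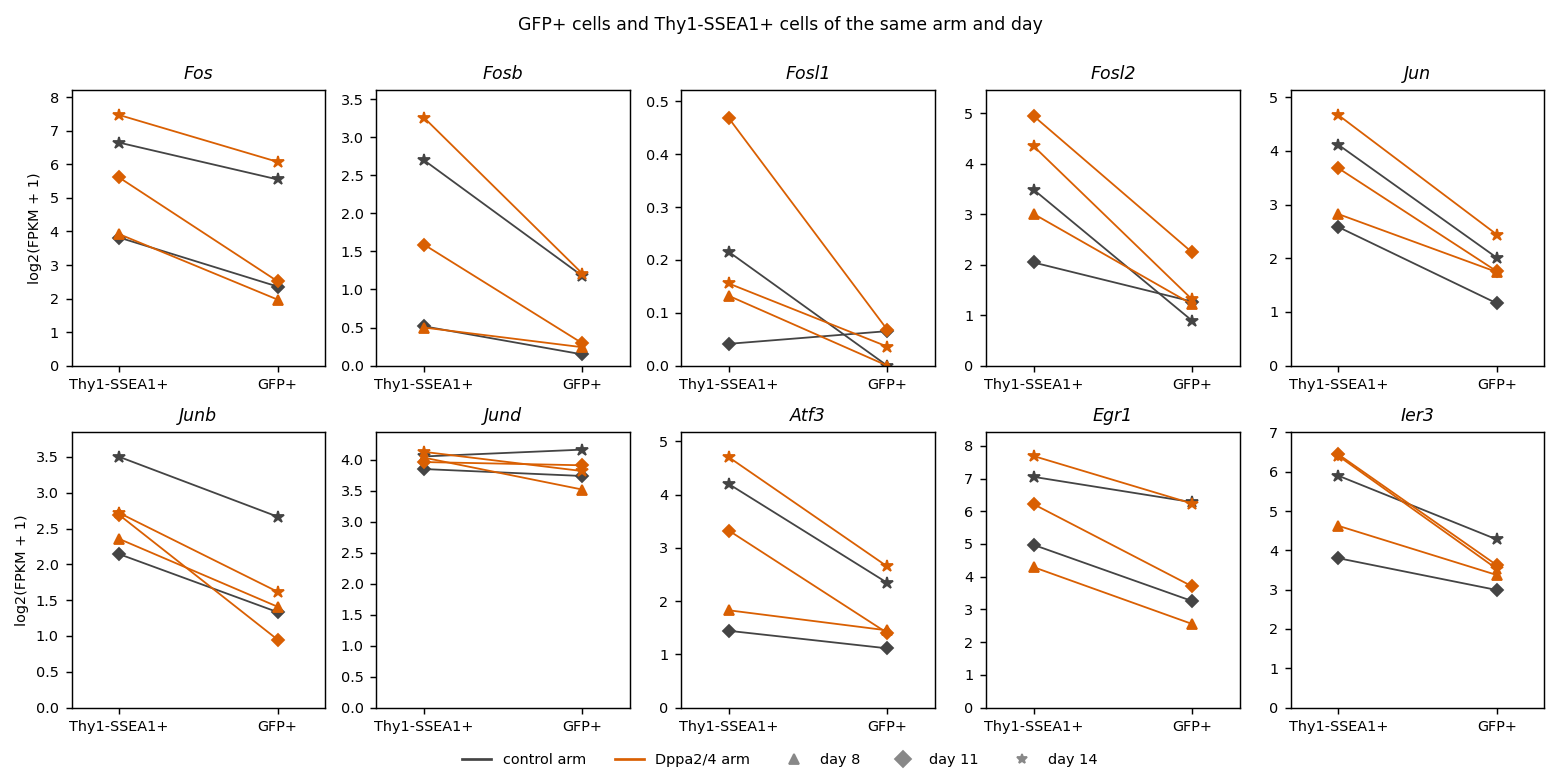
Level of each member, log2(FPKM + 1) on the vertical axis, in Thy1-SSEA1+ and GFP+ cells, with each line joining libraries of the same arm and day, grey for control and orange for Dppa2/4. All 5 lines fall for 8 members, while Jund lies between 10.5 and 16.9 FPKM in both gates.

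Of 30 other immediate early genes 18 were lower and 3 higher in GFP+ than in Thy1-SSEA1+ cells, where 24.3% of all genes were called lower and 17.1% higher. The matricellular gene Cyr61 fell by 2.34 (SE 0.31, adjusted p = 0.00469, limma), from a mean of 168 to 26.3 FPKM, while Klf2, a Kruppel-like factor of naive pluripotent cells, averaged 7.95 FPKM in Thy1-SSEA1+ and 33.7 in GFP+ cells, a rise of 2.11 (SE 0.17, adjusted p = 0.00247). Of 25 AP-1 targets 13 were lower and 0 higher, led by S100a6, a calcium-binding protein, at -2.94 (SE 0.33, adjusted p = 0.00346) and the chemokine Ccl2 at -2.56 (SE 0.39, adjusted p = 0.00676). Of 15 bZIP partners 7 were lower and 2 higher, among them Maff at -0.75 (SE 0.17, adjusted p = 0.0199). Of 20 input genes 7 were lower and 1 higher, led by the receptor Egfr at -2.05 (SE 0.30, adjusted p = 0.00616) and the Fos regulator Elk3 at -1.71 (SE 0.17, adjusted p = 0.00293). Beside the 41.4% of all genes called in either direction, the count of the input genes is near the background. Without day 14 the counts of all 4 lists were 0. The fibroblast sum was also lower in GFP+ cells in each of the 5 pairs. It was 349.5 FPKM in Thy1-SSEA1+ and 338 in GFP+ cells of control day 11, and 907 and 331 on day 14. With Dppa2/4 it was 240.2 and 191, 709.8 and 269.5, and 491 and 294 FPKM on days 8, 11 and 14, and its part in the results was not tested.

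For cells of 1 gate over time, the levels of day 14 stood out. In the 7 series of an arm and gate that hold day 14, it was the highest day in 7 of 7 for Fos, Egr1 and Atf3, as for 5.5% of genes. It was the highest in 6 of 7 for Fosb, Jun, Junb and Jund, where 12.7% of genes had at least 6. For Ier3 it was the highest in 4, and for Fosl1 and Fosl2 in 3.

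In GFP+ cells Fos was 4.13 FPKM on day 11 and 45.9 on day 14 in control, and 2.92, 4.72 and 66.5 on days 8, 11 and 14 with Dppa2/4. Day 14 was thus 11.1 and 14.1 times the highest earlier day. Egr1 there was 8.55 and 76.6 FPKM in control and 4.88, 12.05 and 74.3 with Dppa2/4. Atf3 in Thy1-SSEA1+ cells was 1.23, 1.72 and 17.4 FPKM in control and 2.55, 9.03 and 25.1 with Dppa2/4. Fosl2 in GFP+ cells did not share this, with 1.41 and 0.855 FPKM in control and 1.32, 3.74 and 1.48 with Dppa2/4. All libraries of day 14 share that day, and whether the day or its handling went with these levels cannot be told apart.

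**Figure D4:**
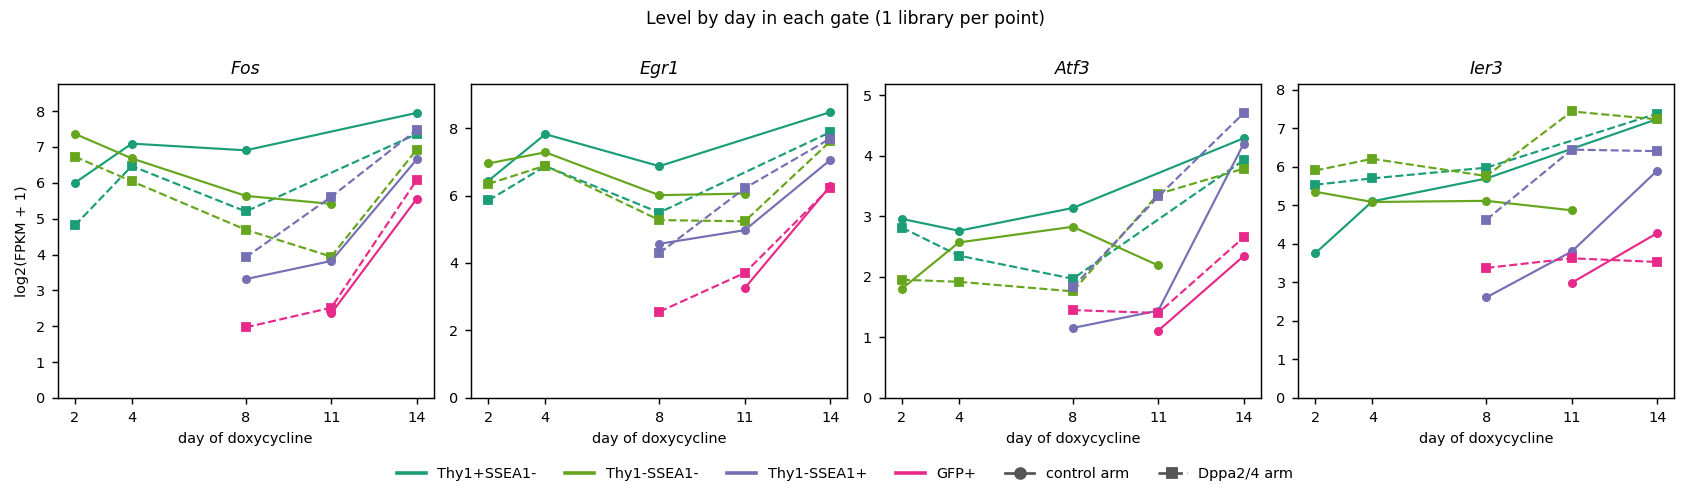
Level of Fos, Egr1, Atf3 and Ier3, log2(FPKM + 1) on the vertical axis, by day of doxycycline on the horizontal axis, with colours for gates, solid lines for control and dashed lines for Dppa2/4, 1 library per point. Fos, Egr1 and Atf3 are highest on day 14 in each of their 7 series, and the dashed lines of Fos and Egr1 in both SSEA1- gates (greens) run below the solid lines of the same gate.

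A straight line over days was fitted within the SSEA1- gates with the arm as a term. In Thy1+SSEA1- cells 0 of 10 members and 0.0% of genes passed (limma), while 6 members and 4098 genes had an unadjusted p under 0.05. Ier3 had the steepest line, at 0.21 per day on the log2 scale (SE 0.03, adjusted p = 0.0620), going from 12.5 on day 2 to 149 FPKM on day 14 in control and from 45.2 to 165 with Dppa2/4. Without the day 4 Thy1+SSEA1- library labelled Dppa2/4 2351 genes passed, among them Ier3 at 0.21 per day (adjusted p = 0.0255) and Fos at 0.17 (adjusted p = 0.0452).

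In Thy1-SSEA1- cells 0 of 10 members and 2.58% of genes passed. Fos was lower on each later day from day 2 to day 11 in both arms, as listed above, and was 120.5 FPKM on day 14 in the Dppa2/4 arm, the 1 library of this gate on that day. Its slope was -0.11 per day (SE 0.08, adjusted p = 0.454), and -0.27 (adjusted p = 0.0244, limma) without that library. Of the genes around AP-1, Pdgfrb fell, at -0.16 per day (SE 0.03, adjusted p = 0.0462), and the kinase gene Sik1 rose, at 0.10 per day (SE 0.02, adjusted p = 0.0307).

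The 4 SSEA1- libraries of OSKM cells of day 2 were set against the rtTA-MEF pair, which lacks the cassette. The OSKM libraries were sorted by gate, while the pair carries no gate label and its day is in doubt. The cassette, the sorting and the day therefore cannot be told apart in this comparison. No member passed, none had an unadjusted p under 0.05, and 0.0116% of genes were called (limma). Fos was 63.0, 27.1, 164 and 105 FPKM in the day 2 OSKM libraries and 31.6 and 16.2 in the rtTA-MEF pair of control and Dppa2/4, a difference of 1.66 (SE 0.71, adjusted p = 0.889). Jun was 17.9, 23.2, 56.5 and 51.3 FPKM against 15.8 and 8.30, a difference of 1.45 (SE 0.64, adjusted p = 0.889), and Egr1 at -0.11 (SE 0.24) had 56.8 to 123 against 81.5 and 98.5 FPKM. Every Jun and Junb value of these OSKM cells was above both values of the pair, while the Fos values overlapped. Junb was 6.57 to 11.0 FPKM against 5.85 and 5.33. The share of all genes that were apart in this way was not counted. The 2 columns name their arm and day 2 but no gate, and were taken as rtTA-MEF because every other day 2 sample has a column of its own.

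The Thy1+SSEA1+ cells of the Dppa2/4 arm, sorted on days 2 and 4, had no control and were set beside Thy1+SSEA1- cells of the same days without a test; the Thy1+SSEA1- library of day 4 is that with control-level Dppa2. Fos was 26.0 and 58.3 FPKM in Thy1+SSEA1+ and 27.1 and 87.5 in Thy1+SSEA1- cells, and Fosl2 was 20.1 and 17.04 against 22.3 and 25.5. Atf3 was 9.73 and 4.10 against 6.03 and 4.10 FPKM. Atf3, Egr1 and Junb lay within the range of the 8 Thy1+SSEA1- libraries, while Fos of day 2 and Fosl2 of day 4 lay just below it. Jund of day 4, at 23.1 FPKM, lay above the highest Jund level of those libraries, 21.2 FPKM. The fibroblast sum was 415 and 443 FPKM there.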

How the data were processed

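Polyadenylated RNA was sequenced from 33 labelled samples, of which 32 matched a column of the deposited table. Its values are FPKM, made by the authors with TopHat2 and Cuffdiff on mm10, per the submitters' processing notes. Versions, annotation and strand setting are not given in the sources used here. The table's 1 value column that matched no sample was not used. FPKM carries no counts, so precision is limited by 1 library per arm, day and gate. A duplicated symbol was taken at its highest mean FPKM.

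Differences were tested with limma 3.58.1 (R 4.3.3, trended variance, two-sided) on log2(FPKM + 1), a scale that understates changes of low genes, over 17242 genes at 1 FPKM or more in at least 2 libraries, with Benjamini-Hochberg adjustment over all of them. Arms were blocked by day and gate, and gates by arm and day. The method was tested on simulated data. The members and lists were chosen with earlier results of these data known. All members were named, and from each other list up to 2 genes per comparison with the greatest change past the threshold, while exceptions were chosen after their values were seen. A gene that the rule names is not reported here. The fits were repeated without a filter, with a mean of at least 5 FPKM as the filter, with 0.1 as pseudocount, after quantile normalization, without the trend, without the block, and with each library or stratum left out. Leaving out day 14, and taking days 8 to 14 alone, were chosen after seeing the data. Promoters came from RefSeq (GRCm38.p6), with an entry used for 8 of 10 members. Gene positions are those of GENCODE vM21.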

Additional observations from a re-analysis of the deposited data

Results flagged for a closer look

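The Dppa2/4 effect on Fos differed between sets of gates by 1.76 on the log2(FPKM + 1) scale, from -0.97 in SSEA1- strata to 0.78 in SSEA1+ or GFP+ strata, by an interaction test in limma (adjusted p = 0.0194). Fos was lower in 8 of 8 of the former and higher in 5 of 5 of the latter, which include the GFP+ strata, where Dppa2 overlapped between the arms. The effect on Egr1 differed by 1.16, from -0.76 to 0.40 (adjusted p = 0.0388, limma), lower in 8 of 8 and higher in 3 of 5. The Egr1 call was lost in 15 of its 22 alternative fits, and that of Fos in 3 of 22, with some fits counted more than once as given below.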

How the results depend on the processing

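Of 90 member effects, 15 passed the threshold. Over 228 alternatives of those 15, 59 lost the call and 0 changed sign, and no effect kept its call in all of its alternatives. Of the other effects, 10 alternatives gained a call. The cause was not tested in any of these.

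Members higher with Dppa2/4 numbered 0 with no replicate block and 1 without day 14, against 2. Members lower in Thy1-SSEA1+ than in Thy1-SSEA1- cells numbered 1 with no filter and 1 with no replicate block, against 2. Those lower than in Thy1+SSEA1- cells numbered 0 with a pseudocount of 0.1, 0 with no filter, 0 without day 14, and 2 both at a mean of at least 5 FPKM and with quantile normalization, against 1. Members lower in GFP+ than in Thy1-SSEA1+ cells numbered 4 with no replicate block and 0 without day 14, against 8. Members rising by day in Thy1+SSEA1- cells numbered 1 at a mean of at least 5 FPKM and 2 without the day 4 Thy1+SSEA1- library labelled Dppa2/4, against 0, and members falling by day in Thy1-SSEA1- cells numbered 1 without day 14, against 0. Members whose Dppa2/4 effect differed by gate numbered 1 with no filter, 1 with quantile normalization, 1 without the control day 11 GFP+ library, 0 without day 14 and 0 on days 8 to 14 alone, against 2.

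With each library, pair or stratum left out in turn, these counts ranged from 2 to 2 for Dppa2/4, 0 to 2 and 0 to 0 for Thy1-SSEA1+ against Thy1-SSEA1- and Thy1+SSEA1- cells, 6 to 8 for GFP+, 0 to 2 and 0 to 1 for change by day in Thy1+SSEA1- and Thy1-SSEA1- cells, and 0 to 3 for the effect by gate. Over all genes, 4047 were called between arms, and 870 with no replicate block, 2278 at a mean of at least 5 FPKM and 2440 without day 14. Over their alternatives, the calls ranged from 0 to 337 for the effect by gate (146 as reported), 0 to 7424 for GFP+ (7145), 0 to 3343 for Thy1-SSEA1+ against Thy1-SSEA1- (3238), 0 to 3137 against Thy1+SSEA1- (2363), 0 to 3 between the SSEA1- gates (1), 0 to 2351 and 0 to 588 by day in Thy1+SSEA1- (0) and Thy1-SSEA1- cells (445), and 0 to 39 against rtTA-MEF (2). Fewer samples remain without day 14 or a pair. The pairing came from shared days and gates, or arms and days, which served as the block. Each group holds 1 library, so replicate numbers pair nothing.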
